A study of Mus musculus with 6 samples.

Results

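The 9 genes described here encode transcription factors that steer helper and cytotoxic T cells into their lineages: Tbx21, Gata3, Rora, Bcl6, Eomes, Ahr, Maf, Prdm1 and Id2. They were chosen by name as lineage factors, and their rows were taken by Ensembl gene identifier, which gave 9 of the 52550 genes and 30 of the 131146 transcripts counted. The RNA came from CD3+ T cells of the spleen of mice whose genotype is given as WT, activated for 24 h with antibodies to CD3 and CD28, which engage the T cell receptor (TCR) and its costimulator. In 3 samples the cells received the activator alone (TCR alone), and in 3 samples a small molecule was added at 100 ng/ml (TCR+DMGV). The sample labels name it DMGV (dimethylguanidino valeric acid), whereas the supplementary legend of this sequencing names LNY1, an inhibitory factor purified from medium of mouse embryonic fibroblasts, at the same dose and time. The legend calls the samples independent biological samples. The mouse behind each sample, its age and its sex are not given in the labels, and no unstimulated sample was analysed here. The cells were magnetically isolated CD3+ cells, a mixture of CD4 and CD8 cells, so fewer cells of a type and less RNA per cell cannot be told apart.

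Naive T cells choose a fate when they are activated, and each fate is tied to a factor that turns on its own program and restrains those of others. T-bet (Tbx21) and Eomes drive interferon-gamma and cytotoxic genes, GATA3 drives the type 2 cytokines, and ROR-alpha (Rora) acts in cells that make IL-17. BCL6 directs follicular helper cells and is opposed by Blimp-1 (Prdm1), a repressor of effector cells. AHR is a receptor for small ligands that enters the nucleus and pairs with ARNT, c-MAF promotes IL-10 and other cytokines, and ID2 holds E proteins away from DNA.

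None of the 9 genes passed the threshold between TCR+DMGV and TCR alone. Rora, the gene of lowest level among them, had the largest difference, with counts of 189 to 268 in TCR alone and 55 to 172 in TCR+DMGV. Ahr followed with a smaller difference in the same direction, and the groups of these 2 genes did not overlap in CPM (counts scaled to a common total by TMM normalization). Of all tested genes, 8.86% had groups that did not overlap, 3.94% with lower values in TCR+DMGV. Scaled to the length of the assigned transcript, the Rora groups did overlap, as given below. The log2 fold changes of the other 7 genes lay between -0.26 and 0.23, with groups that overlapped. The test was edgeR's quasi-likelihood test on gene counts, fitted over 14786 genes, and its threshold was a Benjamini-Hochberg adjusted p of 0.05. In that test 0.0135% of all genes passed, 2 in number, and the adjusted p was 0.999 for each of the 9 factors. With 3 samples against 3, the smallest p that an exact permutation test can give is 0.1.

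The total counts ranged from 37758725 to 43718867 per sample. On the first principal component of log2 CPM the samples did not part by group: TCR alone replicate 3 and TCR+DMGV replicate 1 scored 42.1 and 42.9, and the other 4 between -34.9 and -10.5. Values without these 2 samples are given where a result depends on them. All 11 T cell markers passed the filter on low counts, and their summed FPKM (fragments scaled to transcript length and to the sample's total) was 1027 to 1144 in TCR alone and 1092 to 1193 in TCR+DMGV. The sum for the CD8 markers Cd8a and Cd8b1 was 200.3 to 246 and 214 to 252, and that for the CD4 markers Cd4 and Zbtb7b was 45.55 to 51.78 and 51.80 to 54.21. The CD4 sum, unlike the CD8 sum, thus did not overlap between the groups, by a narrow margin. The sequenced RNA thus held transcripts of both T cell branches in every sample.

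The levels of the 9 genes spanned from 52.0 FPKM for Tbx21 down to 0.273 FPKM for Rora, as means over the 6 samples. Tbx21 stood alone at the top, with all 6 of its values above every value of the next gene. Id2 (11.4 to 15.5 FPKM over the samples), Eomes (11.5 to 15.7 FPKM) and Gata3 (9.71 to 13.4 FPKM) came next, and neighbours in this order overlapped over the 6 samples. A gap of 9.65-fold separated Gata3 from Bcl6 (1.26 FPKM), and Bcl6, Maf (1.12 FPKM), Ahr (0.856 FPKM) and Prdm1 (0.726 FPKM) again overlapped each with the next. Prdm1 and Rora did not overlap. Among all tested genes Tbx21 lay at the 93.3 percentile of mean FPKM, Gata3 at the 73.4, Bcl6 at the 29.2 and Rora at the 12.1 percentile. These levels are those of a mixed population and do not say which cells held the RNA.

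**Figure D1:**
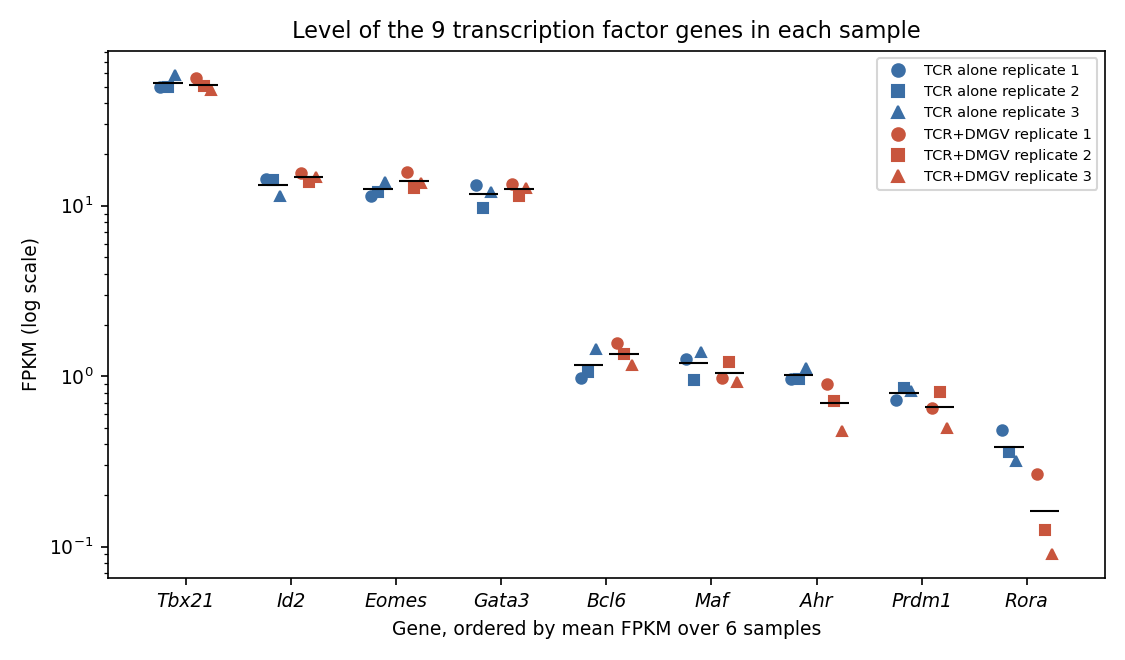
FPKM (vertical log axis) of the 9 factor genes, ordered by mean level, in each of the 6 samples; symbols mark replicates, colours mark groups and black lines are group means. Values are FPKM per gene. Tbx21 lies at 47.8 FPKM or above in all samples, and Id2, Eomes and Gata3 share a middle band. The 3 TCR+DMGV values of Rora lie below its 3 TCR alone values, which is not so in FPKM per transcript.

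Tbx21 (ENSMUSG00000001444.2, chr11:97098071-97115331, GRCm38, reverse strand) encodes T-bet, the factor of type 1 helper and cytotoxic cells. Its FPKM was 49.9, 49.6 and 58.7 in TCR alone replicates 1, 2 and 3 and 55.9, 50.2 and 47.8 in TCR+DMGV replicates 1, 2 and 3. The 2 highest values were those of TCR alone replicate 3 and TCR+DMGV replicate 1, the samples that stood apart, and the groups overlapped. The log2 fold change was -0.023 with a standard error of 0.088 and a 95% interval from -0.23 to 0.18. Leaving out TCR alone replicate 3 gave 0.051 and leaving out TCR+DMGV replicate 3 gave 0.014, so the sign turned with single samples. Of the 9 genes it varied least, with an SD of 0.090 in log2 CPM over the 6 samples.

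Eomes (ENSMUSG00000032446.14, chr9:118478212-118486132, forward strand), the T-box relative of T-bet found in cytotoxic and memory cells, had 11.5, 12.1 and 13.9 FPKM in TCR alone and 15.7, 12.6 and 13.6 FPKM in TCR+DMGV. Its highest value was in TCR+DMGV replicate 1 and the groups overlapped. Its log2 fold change was 0.18 (standard error 0.11, 95% interval from -0.073 to 0.43). Per sample, Tbx21 exceeded Eomes by a log2 FPKM ratio of 2.12, 2.04 and 2.08 in TCR alone and of 1.83, 1.99 and 1.81 in TCR+DMGV. The ratio thus did not overlap between the groups, with a difference in means of -0.20, and no test was made on it. The ratios of Tbx21 to Gata3, Bcl6 to Prdm1 and Id2 to Id3, taken in the same way, overlapped. How often ratios of other gene pairs fail to overlap was not computed.

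Gata3 (ENSMUSG00000015619.10, chr2:9857078-9890034, reverse strand), the type 2 factor that T cells also need during development, had 13.3, 9.71 and 12.1 FPKM in TCR alone and 13.4, 11.5 and 12.8 FPKM in TCR+DMGV. The lowest value was in TCR alone replicate 2, and the groups overlapped. Between the groups the log2 fold change was 0.12 (standard error 0.12, 95% interval from -0.17 to 0.41). The log2 FPKM ratio of Tbx21 to Gata3, genes whose products oppose each other, was 2.18 ± 0.24 in TCR alone and 2.03 ± 0.12 in TCR+DMGV (SD, n = 3 each). The difference of -0.15 was within that spread. Antisense genes overlap Gata3 (Gm13256, 31 to 68 counts per sample), Eomes (Gm33460, 32 to 110) and Maf (Gm15655, 37 to 78), and no source used here says whether strand was used in counting, so their reads cannot be told apart from the factors' reads.

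Id2 (ENSMUSG00000020644.9, chr12:25093799-25097140, reverse strand), which supports effector cells and innate lymphoid cells by binding E proteins, had 14.4, 14.1 and 11.4 FPKM in TCR alone and 15.5, 13.8 and 14.6 FPKM in TCR+DMGV. TCR alone replicate 3 was the lowest sample, and the other 5 lay close together. On the log2 scale the fold change was 0.15 (standard error 0.12, 95% interval from -0.14 to 0.44), and 0.045 when TCR alone replicate 3 was left out. The log2 FPKM ratio of Id2 to Id3, its relative of naive and memory cells, was 0.60 ± 0.40 in TCR alone and 0.56 ± 0.16 in TCR+DMGV (SD, n = 3 each).

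Bcl6 (ENSMUSG00000022508.5, chr16:23965052-23988852, reverse strand) had 0.972, 1.06 and 1.44 FPKM in TCR alone and 1.56, 1.34 and 1.16 FPKM in TCR+DMGV. The 2 highest values were again those of TCR+DMGV replicate 1 and TCR alone replicate 3. Bcl6 had a log2 fold change of 0.23 (standard error 0.18, 95% interval from -0.19 to 0.66), and of 0.41 without TCR alone replicate 3. Prdm1 (ENSMUSG00000038151.13, chr10:44437177-44528501, reverse strand) had 0.725, 0.849 and 0.814 FPKM in TCR alone and 0.653, 0.813 and 0.500 FPKM in TCR+DMGV. TCR+DMGV replicate 3 was its lowest sample, and the groups overlapped. Its log2 fold change was -0.26 (standard error 0.21, 95% interval from -0.76 to 0.23). The log2 FPKM ratio of Bcl6 to Prdm1 was 0.53 ± 0.27 in TCR alone and 1.06 ± 0.30 in TCR+DMGV (SD, n = 3 each), a difference in means of 0.54 with overlapping groups.

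Maf (ENSMUSG00000055435.6, chr8:115682942-115707794, reverse strand) had 1.26, 0.944 and 1.40 FPKM in TCR alone and 0.978, 1.22 and 0.929 FPKM in TCR+DMGV. High and low samples occurred in both groups. Maf had a log2 fold change of -0.18 (standard error 0.18, 95% interval from -0.61 to 0.24).

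Ahr (ENSMUSG00000019256.17, chr12:35497974-35535038, reverse strand) had counts of 252, 278 and 314 in TCR alone and of 273, 218 and 135 in TCR+DMGV. Scaled for depth these were 6.63, 6.81 and 7.59 CPM against 6.13, 5.06 and 3.41 CPM. All 3 TCR+DMGV samples lay below all TCR alone samples, with TCR+DMGV replicate 3 the lowest. The log2 fold change was -0.53 (standard error 0.23, 95% interval from -1.06 to 0.010), with an edgeR p of 0.0534 before and 0.999 after adjustment. The unadjusted p was 0.0165 without TCR+DMGV replicate 1 and 0.128 without TCR+DMGV replicate 3.

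Rora (ENSMUSG00000032238.17, chr9:68653786-69388246, forward strand) had counts of 268, 219 and 189 in TCR alone and of 172, 81 and 55 in TCR+DMGV. These were 7.06, 5.37 and 4.57 CPM against 3.86, 1.88 and 1.39 CPM. TCR+DMGV replicates 2 and 3 were far below the other samples, while TCR+DMGV replicate 1 lay only slightly below TCR alone replicate 3. In TCR+DMGV replicates 2 and 3 every Rora count was assigned to a transcript of 2591 bases, Rora-202. Rora-201, which held all or most counts in the other samples, has 10878 bases. The part of this assignment in the difference between the groups was not tested. The group means were 5.66 ± 1.27 CPM and 2.38 ± 1.31 CPM (SD, n = 3 each). The log2 fold change was -1.25 (standard error 0.39, 95% interval from -2.16 to -0.33), with an edgeR p of 0.0145 before and 0.999 after adjustment. Of all tested genes 3.19% had an unadjusted p under 0.05, 1.56% with lower values in TCR+DMGV, and Rora was the only one of the 9 factors. By unadjusted p it ranked 126 of 14786 genes.

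Lack of overlap between the groups was common among all genes, at 8.86%, or 3.94% with lower values in TCR+DMGV, against 2 of the 9 factors. The Rora difference grew to -1.79 without TCR+DMGV replicate 1 and to -1.92 without both samples that stood apart, where its adjusted p was 0.189, the lowest of any factor under any setting. It shrank to -0.97 without TCR+DMGV replicate 3. Across the 9 genes, 4 fold changes were above 0 and 5 below, with a median of -0.023, beside a median of 0.0024 over all tested genes.

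**Figure D2:**
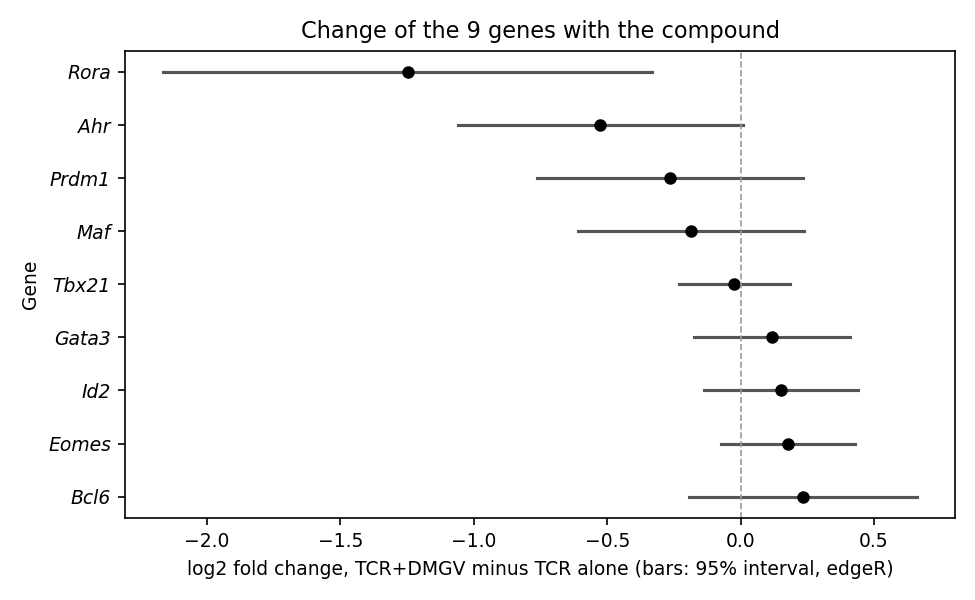
Log2 fold change of each of the 9 genes (TCR+DMGV minus TCR alone, horizontal axis) from edgeR's fit to the counts of all 6 samples, points with bars for the 95% interval. The intervals of 8 genes include 0, and that of Rora runs from -2.16 to -0.33 before any adjustment for the number of genes tested.

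Of the 30 annotated transcripts of these genes, 21 had counts and 17 passed the filter. No transcript of the 38401 tested over all genes passed the threshold (0%), and 3.22% had an unadjusted p under 0.05 in edgeR's quasi-likelihood test, 1.48% lower and 1.74% higher in TCR+DMGV. None of the 17 was among these, and the lowest unadjusted p was 0.0509, for Id2-202. Tbx21 has 1 annotated transcript. Gata3-201 held 98.1% to 99.7% of the counts of Gata3, Bcl6-201 held 95.7% to all of those of Bcl6, and Ahr-202 held 97.2% to 99.7% of those of Ahr. For the other 5 genes the assignment moved between transcripts from sample to sample.

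The parts of the transcripts that tell them apart are shown for Rora, Prdm1, Maf and Eomes, because the counts of these genes were divided over them. Each line is coding sequence of the messenger RNA from GENCODE M21 on GRCm38, 5′ to 3′. Capitals mark coding bases that the transcripts compared do not all share, and lower case marks adjoining shared bases.
Rora-201: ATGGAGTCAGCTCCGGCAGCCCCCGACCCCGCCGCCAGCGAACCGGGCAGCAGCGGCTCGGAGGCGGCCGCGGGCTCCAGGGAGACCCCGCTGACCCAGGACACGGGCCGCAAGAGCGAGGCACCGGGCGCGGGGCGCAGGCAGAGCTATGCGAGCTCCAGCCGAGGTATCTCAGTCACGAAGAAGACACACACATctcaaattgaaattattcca
Rora-202: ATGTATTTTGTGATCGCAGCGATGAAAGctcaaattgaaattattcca
Prdm1-201: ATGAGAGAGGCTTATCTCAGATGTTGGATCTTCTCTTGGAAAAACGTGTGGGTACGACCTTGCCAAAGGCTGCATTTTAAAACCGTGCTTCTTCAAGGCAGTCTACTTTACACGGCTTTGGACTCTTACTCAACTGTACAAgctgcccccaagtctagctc
Prdm1-202: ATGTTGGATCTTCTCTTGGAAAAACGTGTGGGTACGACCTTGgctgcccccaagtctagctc
Prdm1-204: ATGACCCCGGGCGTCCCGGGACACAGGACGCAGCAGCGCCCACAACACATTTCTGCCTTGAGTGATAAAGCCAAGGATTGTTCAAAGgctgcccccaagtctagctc
Maf-201: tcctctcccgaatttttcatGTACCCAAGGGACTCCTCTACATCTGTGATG
Maf-202: tcctctcccgaatttttcatG
Eomes-201: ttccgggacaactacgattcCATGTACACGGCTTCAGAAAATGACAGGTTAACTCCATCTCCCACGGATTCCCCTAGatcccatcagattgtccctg

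Rora-201 and Rora-202 begin at different exons on chromosome 9. The 196 coding bases of Rora-201 not shared with Rora-202 lie in 2 stretches between positions 68653807 and 69196104, and the 28 bases of Rora-202 alone lie at chr9:69290021-69290048. The remaining 1373 coding bases are common to both. In TCR alone, Rora-201 held 268, 219 and 119 counts and Rora-202 held 0, 0 and 70. In TCR+DMGV, Rora-201 held 172, 0 and 0 and Rora-202 held 0, 81 and 55. Every count of Rora went to the long start in TCR alone replicates 1 and 2 and TCR+DMGV replicate 1, and to the short start in TCR+DMGV replicates 2 and 3, while TCR alone replicate 3 was divided. Per transcript length, Rora-201 had 0.582, 0.429 and 0.239 FPKM in TCR alone and 0.321, 0 and 0 FPKM in TCR+DMGV. Rora-202 had 0, 0 and 0.592 FPKM in TCR alone and 0, 0.633 and 0.458 FPKM in TCR+DMGV. The samples of lowest Rora counts were thus those with only the shorter transcript. Per length of the assigned transcript, these 2 samples had 0.633 and 0.458 FPKM. TCR alone replicates 1 and 2, with only Rora-201, had 0.582 and 0.429 FPKM. On this scale the Rora values of the groups thus overlapped, unlike in CPM.

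The division of a gene's counts over its transcripts was compared with edgeR's test of transcript use, in which 1.39% of 7783 genes passed and 4.34% had an unadjusted p under 0.05. Of the 9 factors 6 had at least 2 tested transcripts, and none passed or had an unadjusted p under 0.05, each with an adjusted p of 1. Rora had an unadjusted p of 0.758 in that test. Without TCR alone replicate 3 and TCR+DMGV replicate 1, Rora passed with an adjusted p of 0.0348, and Prdm1 had 0.0530. The Rora call therefore rests on leaving out the 2 samples that stood apart, and in these counts each of the remaining 4 samples had a single Rora transcript.

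Prdm1 showed a similar switch. In TCR alone, Prdm1-202 held 161, 165 and 0 counts and Prdm1-201 held 11, 57 and 207. In TCR+DMGV, Prdm1-202 held 25, 0 and 0 counts, Prdm1-201 held 89, 223 and 123, and Prdm1-204 held 66, 0 and 5. Prdm1-202 was thus the main transcript in 2 samples, both of TCR alone, and Prdm1-201 in the other 4. All 42 coding bases of Prdm1-202 outside the shared 2427 lie at chr10:44458467-44458508, in the range covered by the first coding exon of Prdm1-201, so the letters above are partly the same. The unadjusted p for transcript use was 0.238.

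Id2 differed in 1 sample. Id2-202 held 95.4% of the counts of Id2 in TCR alone replicate 3, against 2.28% or less in every other sample, where Id2-201 held 97.8% or less but always most of them. These transcripts share all of their 402 coding bases and differ outside them, so no letters are shown. The unadjusted p for transcript use of Id2 was 0.0674, the lowest of the 6 genes, and it was 0.247 without TCR alone replicate 3, 0.287 without TCR+DMGV replicate 1 and 0.267 without TCR+DMGV replicate 3.

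Maf-201 and Maf-202 share 1109 coding bases and differ in the last ones, 31 bases in Maf-201 and 1 in Maf-202. Maf-201 took 50.1%, 52.6% and 48.4% of the counts of Maf in TCR alone and 59.2%, 24.3% and 57.4% in TCR+DMGV. Maf-202 took most in TCR+DMGV replicate 2, and the 2 transcripts were near equal in all TCR alone samples. Eomes-201 carries 57 coding bases that Eomes-202 lacks, at chr9:118484274-118484330, and it held 82.1%, 89.4% and 81.4% of the counts of Eomes in TCR alone and 93.3%, 87.5% and 86.8% in TCR+DMGV. Eomes-201 was the main transcript in all 6 samples. How the reads shared by 2 transcripts were divided is not stated in the sources used here, and its part in these shares was not tested.

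**Figure D3:**
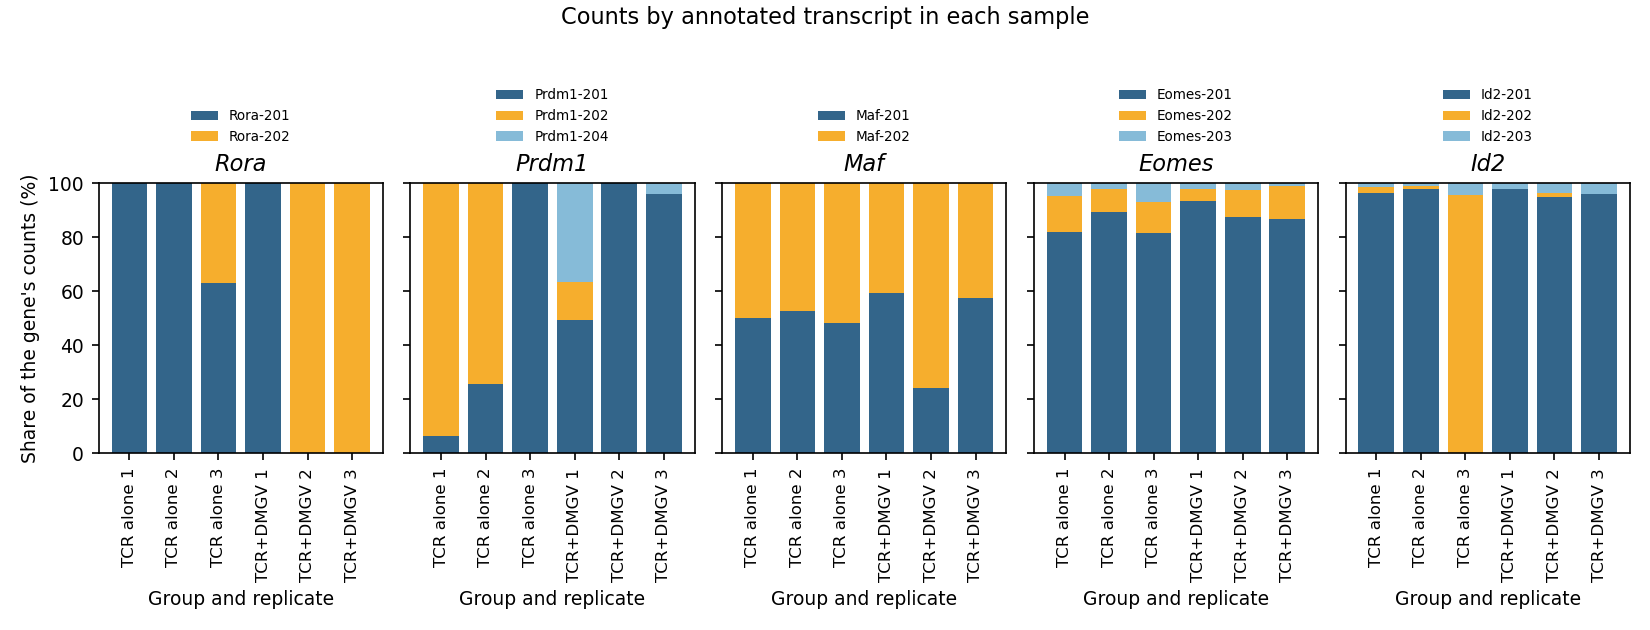
Share of each gene's counts (vertical axis, percent) assigned to its annotated transcripts in each of the 6 samples, for Rora, Prdm1, Maf, Eomes and Id2. Rora and Prdm1 change their main transcript within and between groups, Id2 does so in TCR alone replicate 3, and Eomes keeps Eomes-201 as its main transcript.

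The genes that these factors control were read from lists, and no gene in any of the 11 lists passed the threshold. The lists held 142 genes beside the 9 factors, of which 111 were tested, and 8 of these had an unadjusted p under 0.05 in edgeR's quasi-likelihood test, beside 3.19% of all genes. DESeq2 called 1 of the list genes, Bach2. The list of genes tied to T-bet and Eomes had 12 of 16 tested genes above 0 and a median log2 fold change of 0.081. Its most abundant genes were Gzmb, the cytotoxic protease granzyme B, with group means of 1414 and 1453 FPKM, and Ifng, interferon-gamma, with 406 and 436 FPKM in TCR alone and TCR+DMGV. Ccl3, a chemokine of activated T cells, had the smallest p of the list: it measured 345, 300.3 and 352 FPKM in TCR alone and 429, 429 and 470 FPKM in TCR+DMGV. Its log2 fold change was 0.43 (standard error 0.08), with an edgeR p of 0.00127 before and 0.999 after adjustment. The chemokines Ccl4 (0.29) and Xcl1 (0.34), named after their values were seen, were the only other genes of the list with an unadjusted p under 0.05.

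In the GATA3 list, 7 of 11 tested genes were above 0 with a median of 0.045. The chemokine receptors Ccr8 (40.7 and 41.5 FPKM) and Ccr4 (39.5 and 37.7 FPKM) were its most abundant genes. Il24, a cytokine gene of type 2 cells, had 2.91, 1.75 and 2.63 FPKM in TCR alone and 1.29, 0.911 and 0.836 FPKM in TCR+DMGV. Every TCR+DMGV value was below every TCR alone value. Its log2 fold change was -1.22 (standard error 0.26), with an edgeR p of 0.00223 before and 0.999 after adjustment.

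The ROR list joins cytokines of IL-17 cells and clock genes under ROR control, and 7 of its 11 tested genes were above 0, with a median of 0.15 beside the Rora value of -1.25. Its most abundant genes were the clock genes Cry1 (9.88 and 10.9 FPKM) and Npas2 (6.34 and 7.47 FPKM), and Npas2 also had the smallest p, with a log2 fold change of 0.25. No gene of the list had an unadjusted p under 0.05 in edgeR's quasi-likelihood test.

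Of the AHR battery, the genes by which AHR activity is usually read, only 3 of 8 passed the filter. The xenobiotic enzyme genes Cyp1a1, Cyp1a2 and Cyp1b1 had 0.101 FPKM or less in every sample. Tiparp, which encodes a repressor of AHR, had 3.05 and 2.54 FPKM, and Il22, a cytokine gene AHR can induce, had 1.18, 0.613 and 0.627 FPKM in TCR alone and 0.741, 0.135 and 0.395 FPKM in TCR+DMGV. All 3 tested genes were below 0, with a median of -0.90, and none had an unadjusted p under 0.05 in edgeR's quasi-likelihood test. That median was the value of Il22, with 8 to 56 counts per sample. The other low gene, Ahrr, named after its values were seen, had 0 to 12 counts. Tiparp, with 352 to 724 counts, had a log2 fold change of -0.25 (standard error 0.35). Among the 6 genes of the AHR complex, the chaperones Hsp90ab1 (2012 and 2013 FPKM) and Hsp90aa1 (442 and 413 FPKM) were the most abundant. Arnt, the partner of AHR, had 3.77 and 4.03 FPKM with a log2 fold change of 0.12, and the median of the complex was 0.028.

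The c-MAF list had 4 of 9 genes above 0 and a median of -0.022, with the receptors Tigit (64.4 and 68.1 FPKM) and Icos (40.4 and 38.9 FPKM) as its most abundant genes. Il10, which encodes the inhibitory cytokine IL-10, had 3.04, 3.29 and 3.11 FPKM in TCR alone and 1.84, 2.03 and 2.39 FPKM in TCR+DMGV. The groups did not overlap, and the log2 fold change was -0.57 (standard error 0.18), with an edgeR p of 0.0157 before and 0.999 after adjustment. The follicular helper list had 5 of 13 genes above 0 and a median of -0.022. Its most abundant genes were Tnfsf8 (50.0 and 49.6 FPKM), a ligand of the TNF family, and Btla (41.7 and 39.5 FPKM), an inhibitory receptor, and Cd200 had its smallest p, with a log2 fold change of 0.35 (standard error 0.31).

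Among genes that Blimp-1 represses, 6 of 11 were above 0 with a median of 0.050. The homing receptor Ccr7 (227 and 245 FPKM) and Tcf7 (127 and 130.0 FPKM), the factor of naive and memory cells, led this list. Bach2, a repressor that keeps T cells from terminal effector fates, had 20.05, 15.8 and 8.68 FPKM in TCR alone and 6.11, 6.06 and 8.26 FPKM in TCR+DMGV. TCR alone replicate 3 lay close to the TCR+DMGV samples, though the groups did not overlap. Its log2 fold change was -1.11 (standard error 0.30), with an edgeR p of 0.00749 before and 0.999 after adjustment, while DESeq2 gave an adjusted p of 0.0464.

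In the list of 28 other lineage factors, 17 of 27 tested genes were above 0 with a median of 0.049. Irf4 (218 and 223 FPKM), which TCR signals induce, was the most abundant, followed by Tcf7. Bach2 and Foxp3 were the 2 genes of this list with an unadjusted p under 0.05. Foxp3, the regulatory T cell factor, named after its values were seen, had 6.25, 5.57 and 7.42 FPKM in TCR alone and 8.24, 7.78 and 8.34 FPKM in TCR+DMGV, a log2 fold change of 0.36 (standard error 0.11). Of the E proteins and other ID genes, Tcf3 (33.4 and 31.3 FPKM) and Id3 (8.83 and 9.95 FPKM) were the most abundant, and Id1 had the smallest p, with a log2 fold change of -0.44 (standard error 0.23). Their list had 2 of 5 tested genes above 0 and a median of -0.080.

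Of 40 paralogs of the factors, 13 had no count in any sample and 18 passed the filter, 5 of them above 0, with a median of -0.063. Mafk (15.8 and 16.4 FPKM) and Prdm4 (12.6 and 11.7 FPKM) were the most abundant. Bcl6b, a close relative of Bcl6, had 0.424, 0.344 and 0.248 FPKM in TCR alone and 0.138, 0.152 and 0.130 FPKM in TCR+DMGV. Its log2 fold change was -1.24 (standard error 0.33), the smallest p of the list at 0.00698 before and 0.999 after adjustment in edgeR.

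**Figure D4:**
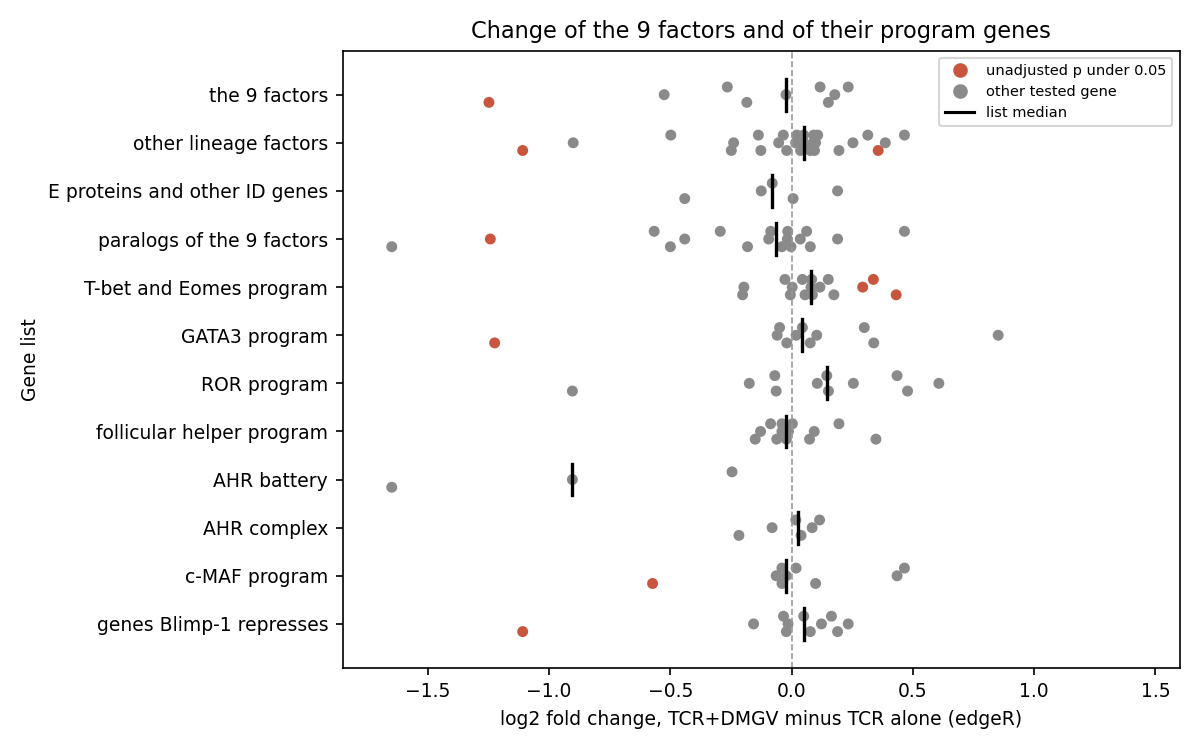
Log2 fold change (TCR+DMGV minus TCR alone, horizontal axis) of every tested gene in the list of 9 factors and in 11 lists of related genes; black bars are list medians and red points have an unadjusted p under 0.05. No gene passed after adjustment, and Rora at -1.25 is the only red point among the 9 factors.

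The genes whose profiles over the 6 samples were closest to those of Rora, Ahr and Prdm1, the 3 factors of largest SD in log2 CPM (0.88, 0.41 and 0.27), were found among genes with a mean log2 CPM above 3. Rcan3, a calcineurin regulator, was closest to Rora, with 50.9, 44.7 and 50.2 CPM in TCR alone and 46.3, 13.3 and 12.1 CPM in TCR+DMGV and a root mean square difference of 0.29 in centred log2 CPM. TCR+DMGV replicates 2 and 3 were the low samples, as for Rora. Ikzf2, which encodes Helios, followed at 0.32, where the median over genes was 0.83. Arhgap19 (0.14) and Tti1 (0.16) were closest to Ahr, and Lrrc28 (0.07) and Cdkn2c (0.08) to Prdm1.

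Several other cell types also express these factors, and their marker sums were low beside that of the T cell markers (1027 FPKM or more). They were not low beside every factor. The B cell, plasma cell and group 2 innate lymphoid sums exceeded the mean levels of Bcl6 (1.26), Prdm1 (0.726) and Rora (0.273 FPKM). Whether such cells added to the RNA of these factors was not tested. The 6 NK cell markers, of a cell that holds Tbx21, Eomes and Id2, summed to 0.438 to 0.635 FPKM in TCR alone and 0.841 to 1.03 FPKM in TCR+DMGV, with Ncr1 at 0.0548 to 0.476 FPKM over all samples. The 5 markers of group 2 innate lymphoid cells, which hold Rora and Gata3, summed to 0.465 to 0.677 and 0.392 to 0.683 FPKM. Hs3st1 was at 0 in every sample, and Il1rl1 had the highest group means, 0.374 and 0.356 FPKM. The 4 plasma cell markers, of a cell that holds Prdm1, summed to 1.63 to 2.19 and 1.4998 to 1.77 FPKM, with Tnfrsf17 at 0. Sdc1 (group means of 1.53 and 1.23 FPKM) and Jchain (0.378 and 0.254 FPKM) made up most of that sum. The 10 B cell markers, of cells that can hold Bcl6, summed to 3.98 to 5.56 and 3.92 to 4.53 FPKM, of which Cd79b made up most and Fcrla was at 0.

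Macrophage and monocyte markers summed to 2.42 to 3.74 and 2.45 to 3.59 FPKM, with Cd14 and C1qc at 0. Most of that sum was Csf1r (group means of 1.46 and 1.37 FPKM) and Cd68 (1.37 and 1.45 FPKM). Dendritic cell markers summed to 2.53 to 4.58 and 3.03 to 3.88 FPKM, with Clec9a, Siglech and Cd209a at 0. Batf3 (2.35 and 2.25 FPKM) and Itgax (0.632 and 0.794 FPKM) made up most of them. Neutrophil markers reached 0.0262 FPKM, with 6 of 7 at 0 in every sample. Erythroid markers summed to 4.70 to 5.83 FPKM in TCR alone and 2.28 to 4.24 FPKM in TCR+DMGV, and stromal and endothelial markers, mostly Pecam1, to 4.67 to 5.46 and 4.99 to 5.39 FPKM. The NK and erythroid sums, like the CD4 sum, did not overlap between the groups, and their part in the values of the factors was not tested.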

How the data were processed

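RNA of activated mouse splenic CD3+ T cells was sequenced in 6 samples, 3 a group, assigned from the sample titles. Per the methods, total RNA was extracted with TRIzol, and the authors filtered reads with SOAPnuke, aligned them by HISAT2 2.0.4 and took expression levels from StringTie. The authors deposited whole-number counts, not normalized, and FPKM values, per gene and per transcript. The step from StringTie to counts and its use of strand are not given in the sources used here. The labels list the build mm9, but 99.7% of gene identifiers without version matched GENCODE M21 (GRCm38), as did all 9 members with version. Symbols, coordinates and sequences come from M21.

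Gene and transcript counts were tested with edgeR 4.0.16 in R 4.3.3 (TMM, filterByExpr, quasi-likelihood F test, two-sided, Benjamini-Hochberg over the whole table, threshold 0.05), and transcript use with its diffSpliceDGE (Simes). The edgeR standard errors are those of the fitted fold changes. Scripts were tested on simulated data. The 9 members and the 225 genes of the lists (11 programs, 12 cell types) were chosen with earlier results of these data known. Genes named beside the members are, in each program list, any past the threshold, the 2 of highest mean FPKM and the 1 of smallest p, and the 2 nearest profiles for each of 3 members; others were chosen after their values were seen. Some single genes of the lists are not reported here. Alternatives were DESeq2 1.42.0, other scalings and filters, summed transcript counts, limma 3.58.1 on log2(FPKM + 1) and log2(FPKM + 0.1), the replicate number as a block, and samples left out. Replicates differed beyond counting noise (median chi-square per gene of 3.89 or more between any 2 samples). P-values measure the spread between these samples. Depth was 37758725 to 43718867 counts per sample.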

Additional observations from a re-analysis of the deposited data

How the results depend on the processing

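No factor passed the threshold in any of 16 other settings of the gene test, and none of their transcripts in 11 settings. Transcript use called 1 factor, Rora, without TCR alone replicate 3 and TCR+DMGV replicate 1, and 0 in the 9 other settings. Over all genes 2 passed in the main test, 14 with DESeq2, 1 with library size alone or no filter, 0 with the replicate block or either limma fit, 0 to 5 with 1 sample left out and 12 without both samples that stood apart. The block had 340 genes at an unadjusted p under 0.05, and limma had 765 and 710. Transcript use called 108 genes, 53 at 1 CPM or more in 3 samples, 41 with the block, 151 to 171 with 1 sample left out and 219 without both. Same-numbered samples deviated from their group means with correlations of -0.15, 0.12 and -0.15, so the numbers were not read as pairs. With the replicate block Rora had a log2 fold change of -1.36.

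The Rora log2 fold change was -0.26 with limma on log2(FPKM + 1) and -0.94 with the pseudocount of 0.1, as a low gene is compressed by the pseudocount, and ran from -1.79 to -0.97 with 1 sample left out; Ahr ran from -0.73 to -0.32. Signs turned in some fits with 1 sample, or the 2 that stood apart, left out, and the ranges of the log2 fold change were -0.081 to 0.051 for Tbx21, -0.0075 to 0.10 for Tcf7, -0.14 to 0.072 for Ccr4, -0.23 to 0.18 for Tnfsf8, -0.29 to 0.15 for Btla, -0.51 to 0.00015 for Tiparp, -0.021 to 0.058 for Hsp90ab1, -0.26 to 0.088 for Hsp90aa1 and -0.087 to 0.024 for Icos. Among transcripts they were -0.085 to 0.037 for Tbx21-201, -0.0091 to 0.19 for Gata3-201, -0.46 to 0.23 for Eomes-202, -0.59 to 0.31 for Maf-202 and -0.013 to 1.03 for Id2-201. Tnfsf8, near 0 in the main test, was -0.0036 with DESeq2-style size factors, -0.0084 with library size alone and -0.0020 with DESeq2. Rcan3 passed without TCR+DMGV replicate 1 (-1.94, adjusted p = 0.0206) and without both (-1.91, adjusted p = 0.0285).

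With counts scaled to the longest transcript and to the sample's total in place of FPKM, the levels were 58.4 for Tbx21, 19.5 for Id2, 17.4 for Eomes, 16.9 for Gata3, 2.41 for Bcl6, 1.63 for Maf, 1.07 for Ahr, 0.865 for Prdm1 and 0.370 for Rora, in the same order. The longest transcript did not hold the counts of Rora in TCR+DMGV replicates 2 and 3. It held most counts of Id2 only in TCR alone replicate 3. With 1 sample left out, mean levels stayed within 1 SD, and the difference in log2 ratio ran from -0.28 to -0.06 for Tbx21 to Gata3, -0.26 to -0.17 for Tbx21 to Eomes, 0.44 to 0.71 for Bcl6 to Prdm1 and -0.26 to 0.10 for Id2 to Id3. Rora had 55 to 268 counts per sample, so counting error adds to its spread between samples, an SD of 0.88 in log2 CPM. The size of that counting error was not measured.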
